A study of Rattus norvegicus with 24 samples.

Results

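The genes described here lost expression with dexamethasone in both lung and liver of newborn rats, and held their mean level in liver with desisobutyryl ciclesonide. They were chosen on CPM, the count of a gene as a share of all gene counts of its library scaled to 1e6, averaged over the 4 libraries of a group. A fold is the drug mean over the vehicle mean, each with 0.5 CPM added. A gene was taken if its vehicle mean was 5 CPM or more in both tissues, its dexamethasone mean was at least 3-fold lower in both tissues, and its desisobutyryl ciclesonide mean in liver lay within 1.4-fold of vehicle in either direction. The rule found 192 of 30560 gene identifiers, called members below.

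Whole lung and whole liver of wild-type Sprague Dawley pups were profiled by RNA sequencing at postnatal day 6, in 6 groups of 4 libraries. Each pup was injected under the skin once a day, 5 times in all, beginning at postnatal day 1, and was sampled 24 hours after the last dose. Vehicle was 2.5% ethanol. Dexamethasone was given at 0.1 mg/kg. The dose of desisobutyryl ciclesonide was 1.25 mg/kg. The doses differ, so values for the drugs stand side by side and are no comparison at a matched dose. The labels do not say which litters the pups came from, so p-values measure the spread between these libraries.

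Dexamethasone is a long-acting synthetic steroid of the glucocorticoid class. Ciclesonide is an inhaled prodrug, and its active form after ester cleavage is desisobutyryl ciclesonide. Both act through the glucocorticoid receptor, a transcription factor that moves to the nucleus when it binds a steroid and that raises some genes and lowers others. Glucocorticoids are given to preterm infants for lung disease, and in newborn rodents dexamethasone is known to slow growth and alveolar septation. Newborn liver is both a metabolic organ and, for a short time after birth, a site of blood formation.

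The files give Ensembl identifiers without gene names, and 0 of the 30560 identifiers matched the table of 47357 rat genes at hand. The roles of the members and the markers of the labelled tissues could therefore not be looked up, and gene and marker lists could not be applied. In whole tissue, fewer cells of a type and less RNA per cell cannot be told apart.

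Gene counts per library ran from 15839958 to 27881158 for lung, and for liver from 15397992 to 26194384. The desisobutyryl ciclesonide libraries had fewer unaligned reads, 0.930% to 1.25% of entries in lung against 2.32% to 3.01% with vehicle, and 0.801% to 1.399% in liver against 2.04% to 3.32%. Their deposited names also come from a numbering of their own, so drug and library series cannot be told apart wherever desisobutyryl ciclesonide is compared. Lung dexamethasone replicates 3 and 4 stood apart from the other lung libraries. They shared 50 genes, 0 of them members, whose levels exceeded those of the remaining lung libraries by 4-fold or more. The CPM of these genes added up to 3146 and 9386, against at most 235 elsewhere. Without these 2 libraries the rule gave 209 genes, 188 of them members. Liver vehicle replicate 4 was low in the members, as given below.

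The rule narrowed the genes in steps, which are given as a description. At 5 CPM or more in both vehicle groups stood 9178 genes. Dexamethasone was at least 3-fold below vehicle for 360 of them in lung and for 535 in liver, and 246 were in both lists, which is 68.3% of the lung list and 45.98% of the liver list. For rises of at least 3-fold the lists held 173 and 137 genes, with 39 in both. Of the 246 joint losses, 192 (78.05%) lay within 1.4-fold of vehicle in liver with desisobutyryl ciclesonide and are the members. Another 35 were lower than that and 19 were higher. Of all 9178 genes, 8103 (88.3%) lay within that limit.

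The limits cut through continuous values. The member nearest to the lung dexamethasone limit was 3.02-fold lower and the nearest gene outside it 2.995-fold lower. In liver these values were 3.001-fold and 2.99-fold. For desisobutyryl ciclesonide in liver the lowest member had a fold of 0.717 and the nearest gene below it 0.712, while the highest member had 1.38 and the nearest gene above it 1.41. The lowest vehicle means among members were 5.21 CPM in lung and 5.03 CPM in liver, with 4.90 and 4.95 CPM just outside.

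In vehicle libraries the members were moderately expressed. Their vehicle means had a median of 38.9 CPM in lung, with a range of 5.21 to 5072, and a median of 12.7 CPM in liver, with a range of 5.03 to 362. All 9178 genes past the vehicle limit had medians of 49.2 and 21.5 CPM. Together the members held 2.31% ± 0.0821 (SD, n = 4) of lung counts and 0.504% ± 0.0819 of liver counts with vehicle. Vehicle levels were higher in lung than in liver for 182 of 192 members, with a median ratio of 2.76. That is 94.8% of members, where 84.4% of the 9178 genes were higher in lung, with a median ratio of 2.17. At 2-fold or more above liver stood 76.6% of members and 55.2% of the genes. The difference was not tested, and the rule used the vehicle libraries of both tissues. CPM values of one gene were compared between tissues here, and no levels were compared between genes by length. With vehicle, the 10 most abundant genes of a library held a mean of 30.7% of gene counts in liver and 7.04% in lung. CPM is a share of all counts, so ratios between the tissues also reflect this difference.

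With dexamethasone the members fell to a small part of their vehicle level in both tissues, as the rule required. The lung folds ran from 3.02-fold to 33.8-fold lower with a median of 7.14-fold, and the liver folds from 3.001-fold to 23.1-fold lower with a median of 5.71-fold. At least 10-fold lower were 73 members in lung and 21 in liver. The mean stood under 1 CPM for 25 members in lung and 39 in liver. In lung all 192 members had their 4 dexamethasone libraries below all 4 vehicle libraries, and in liver 191 did, where 36.0% and 32.7% of the 9178 genes showed such a gap. These counts follow from the rule and carry no further reading. The exception in liver, named after its values were seen, was ENSRNOG00000012660. It measured 19.6, 16.6, 23.1 and 7.31 CPM in liver vehicle replicates 1 to 4 and 9.81, 1.24, 2.66 and 4.31 CPM with dexamethasone, so dexamethasone replicate 1 lay above vehicle replicate 4.

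Losses that were deeper in lung tended to be deeper in liver. Across the 192 members the log2 folds with dexamethasone in lung and in liver correlated with Pearson r = 0.513 and Spearman rho = 0.558. Genes are not independent replicates, and the rule limits both values, so this is a description. Vehicle levels in lung and liver correlated with Pearson r = 0.613, near the value over all 9178 genes, 0.568. Vehicle levels and folds share the same lung and liver libraries, and the scale is log2 of CPM plus 0.5.

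The level of the whole group was then followed library by library, as the median over members of the ratio to the vehicle mean of the tissue. In lung, vehicle replicates 1 to 4 stood at 1.01, 0.939, 1.06 and 0.975, and dexamethasone replicates at 0.120, 0.115, 0.164 and 0.147. Desisobutyryl ciclesonide replicates in lung stood at 0.531, 0.469, 0.374 and 0.298, between the other treatments and without overlap with either. In liver, vehicle replicates stood at 0.999, 1.15, 1.098 and 0.734, and dexamethasone replicates at 0.249, 0.131, 0.162 and 0.151. Desisobutyryl ciclesonide replicates in liver stood at 1.06, 1.11, 0.951 and 0.843, within the range of the vehicle libraries. The rule limited the means of this group, so levels near vehicle follow from it. Its replicates 3 and 4 lay within that range only through vehicle replicate 4. Vehicle replicate 4 was the lowest vehicle library in liver, with 172 of 192 members below the vehicle mean. In lung the spread was widest with desisobutyryl ciclesonide, where replicates 3 and 4 were lowest in the members. They also had the fewest gene counts of the 12 lung libraries, 16399768 and 15839958. In liver, desisobutyryl ciclesonide replicate 4 was the lowest of its group at 0.843. It had the most gene counts of the 12 liver libraries, 26194384. The part of depth in these values was not tested.

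**Figure D1:**
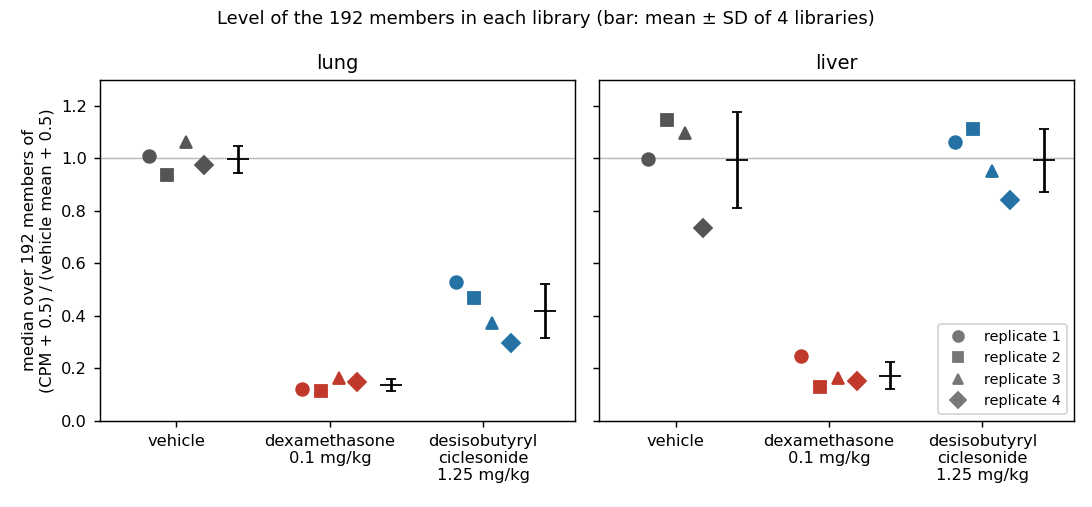
Median over the 192 members of the ratio to the vehicle mean of the tissue (y axis, no unit, each with 0.5 CPM added) in each library, by treatment, in lung and liver. Symbols mark replicate numbers and bars the mean ± SD of 4 libraries. In lung the desisobutyryl ciclesonide libraries lie from 0.298 to 0.531, below every vehicle library. In liver, where the rule limited their means, they lie from 0.843 to 1.11, among the vehicle libraries.

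The heat map of all members shows the same pattern gene by gene. Most rows are near vehicle level in liver with desisobutyryl ciclesonide, as the rule required of the mean, and below it in lung.

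**Figure D2:**
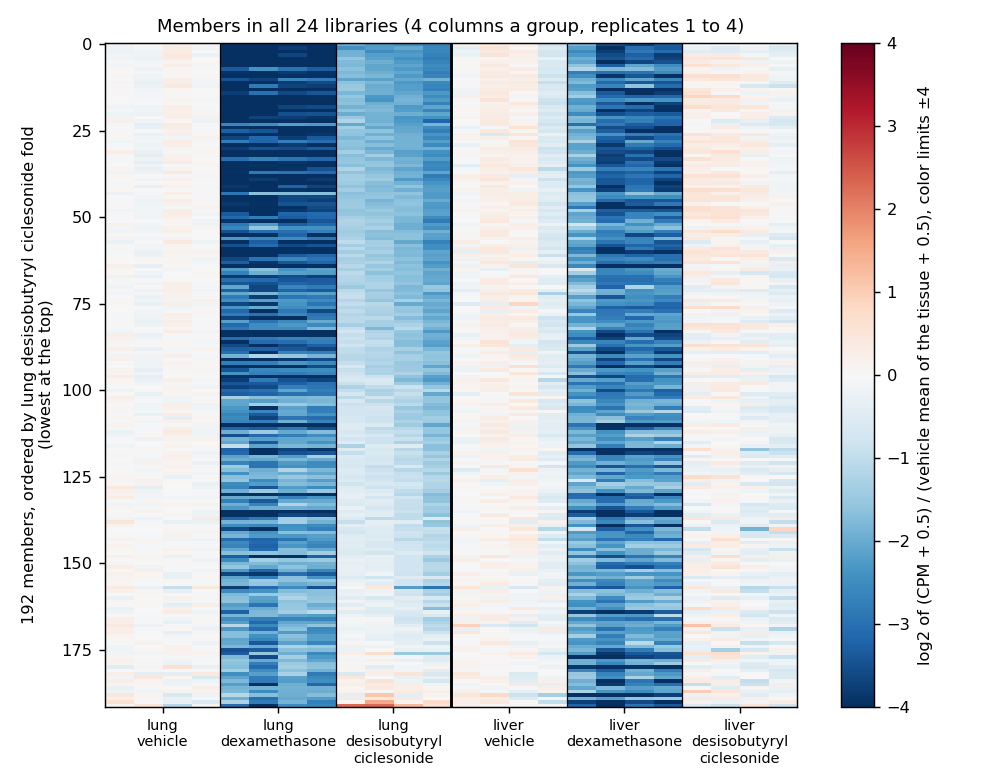
Each row is 1 of 192 members and each column 1 of 24 libraries (4 per group, replicates 1 to 4). Color is log2 of the ratio to the vehicle mean of the same tissue, blue for lower and red for higher, and rows are ordered by their lung desisobutyryl ciclesonide fold. Both dexamethasone blocks are blue in every row, as the rule requires, and the lung desisobutyryl ciclesonide block is blue in most rows.

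The label of the group calls it spared by ciclesonide, and this held for liver means, where the rule imposed it, but not for lung. In lung, 28 of 192 members lay within 1.4-fold of vehicle, 162 were lower than that and 2 were higher. Of all 9178 genes past the vehicle limit, 7547 (82.2%) lay within 1.4-fold in lung and 1098 (11.96%) were lower. At 2-fold lower or more stood 112 members (58.3%), against 214 of the 9178 genes (2.33%). The 2 members above 1.4-fold were ENSRNOG00000024115, described below, and ENSRNOG00000019183, which is named after its values were seen. The group is therefore named by its rule, as losses with dexamethasone in both tissues that were held in liver.

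The desisobutyryl ciclesonide libraries of lung took no part in choosing the members, so the lung change against vehicle was tested. The vehicle libraries of lung did take part, through the dexamethasone fold and the limit of 5 CPM. The part of these shared vehicle libraries in the result was not tested. edgeR's quasi-likelihood test was fitted to all 16108 genes that passed the expression filter in lung, which include all 192 members, with Benjamini-Hochberg adjustment over all of them. Over all genes 12.3% were called lower and 11.8% higher at an adjusted p under 0.05. Among members 139 (72.4%) were called lower, 1 was called higher and 52 were not called. Among the 9178 genes past the vehicle limit, 14.3% were called lower.

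The fitted log2 change of the members in lung with desisobutyryl ciclesonide had a median of -1.16, with quartiles of -1.68 and -0.66. Over all genes tested the median was -0.01, with quartiles of -0.28 and 0.31. Both called lower and at least 2-fold lower were 104 of 192 members, where 178 of the 9178 genes and 557 of the 16108 genes tested were both. In CPM, 163 members had all 4 desisobutyryl ciclesonide libraries below all 4 vehicle libraries in lung (84.9%), where 29.7% of the 9178 genes did. In liver 6 members did, where 9.24% of the genes did. The liver count follows from the rule. In lung, the number of members below every vehicle library was 168, 167, 178 and 183 in desisobutyryl ciclesonide replicates 1 to 4. Of the 9178 genes, 40.4%, 48.3%, 47.5% and 52.6% lay below every vehicle library in these replicates. In liver the members below every vehicle library numbered 25, 15, 48 and 59, where 19.8%, 22.2%, 34.4% and 41.9% of the genes did, and the rule limits these liver counts.

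**Figure D3:**
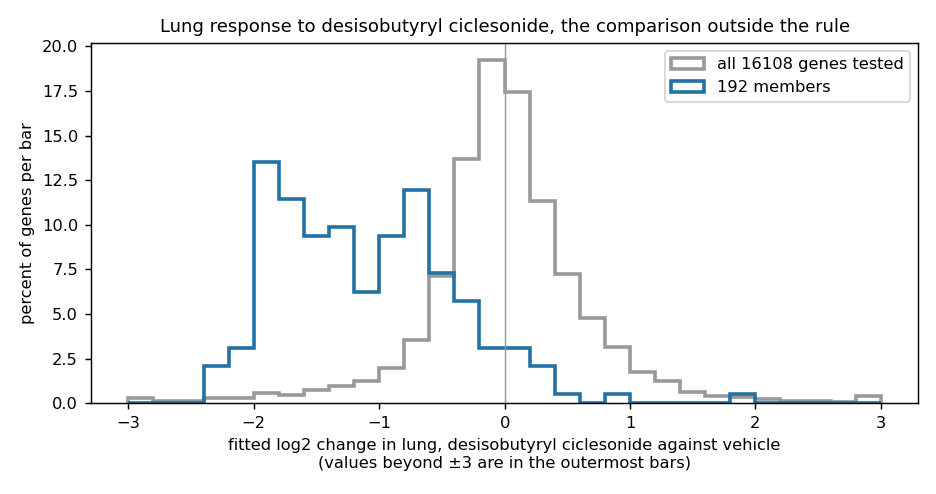
Percent of genes per bar (y axis) by fitted log2 change in lung, desisobutyryl ciclesonide against vehicle (x axis, edgeR), for the 192 members (blue) and all 16108 genes tested (grey). The median of the members is -1.16, and the median of all genes is -0.01.

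The 4 drug comparisons put side by side show where the rule acted and where it did not. The liver desisobutyryl ciclesonide folds span 0.717 to 1.38 by construction, with a median of 0.977. The lung desisobutyryl ciclesonide folds, which the rule did not limit but whose vehicle libraries it used, span 0.1996 to 3.42 with a median of 0.428. The lung fold was below the liver fold for 175 of 192 members. The rule limited the liver fold, and the share of all genes was not counted. Over the 9178 genes the median desisobutyryl ciclesonide fold was 0.920 in lung and 0.971 in liver, so nothing is read from this count. All 4 desisobutyryl ciclesonide libraries lay above all 4 dexamethasone libraries for 175 members in lung, where 24.5% of the 9178 genes did, and for 190 in liver, where 29.2% did. The doses differ and the rule used the dexamethasone libraries, so nothing is read from these counts. Both dexamethasone comparisons and the lung desisobutyryl ciclesonide comparison use vehicle libraries of their tissue, so lung folds of the drugs share 4 libraries.

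**Figure D4:**
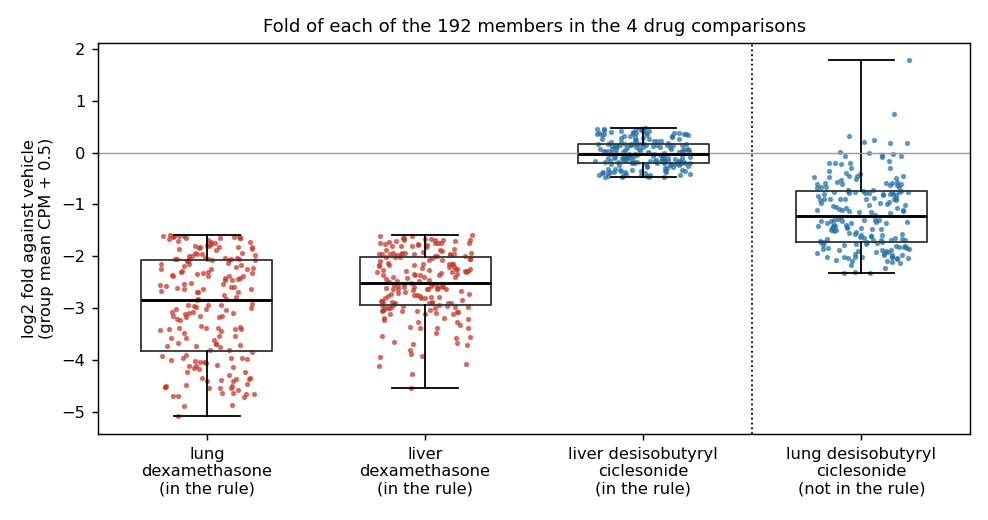
Log2 fold against vehicle on group mean CPM plus 0.5 (y axis) of each of the 192 members (points) in the 4 drug comparisons. Boxes give the quartiles and the median, and whiskers reach the lowest and highest member. The 3 comparisons left of the dotted line were used to choose the members, and in the one right of it the median fold is 0.428.

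The liver limit was set on group means, and single libraries spread more widely. All 4 desisobutyryl ciclesonide libraries of liver lay within 1.4-fold of the vehicle mean for 91 of 192 members. The same held for all 4 vehicle libraries of liver for 100 members. Libraries on both sides of that limit, under 1/1.4 and over 1.4 of the vehicle mean, were found for 4 members with desisobutyryl ciclesonide and for 13 with vehicle. The rule used these liver values, so the counts are a description. In lung all 4 libraries lay within 1.4-fold of the vehicle mean for 186 members with vehicle and for 12 with desisobutyryl ciclesonide. The share of all genes was not counted for these numbers, so they too are a description.

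The 139 members called lower in lung and the 52 that were not called differed in other values too, given without a test because several were used to choose the members. Vehicle means in lung had medians of 37.7 CPM for those called and 46.4 CPM for those not called. Dexamethasone losses in lung had medians of 9.01-fold and 4.25-fold, a contrast that shares the vehicle libraries. Losses in liver, measured in other libraries, had medians of 6.07-fold and 4.28-fold. The standard error (SE) of the log2 change was taken as its absolute value over the square root of the F statistic of the test. Its median was 0.21 for those called and 0.26 for those not called. The calls rest on the same F statistic, so this difference is partly built in. Of the 52 not called, 40 had a fitted change below 0, where the median over all genes tested was -0.01. The share of all genes below 0 was not counted, and the rule used the lung vehicle libraries, so nothing is read from this count.

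Members were also grouped by values from liver, which share no library with the lung test. The rule set limits on each of these liver values, so the counts are a description of chosen genes. In order of the loss with dexamethasone in liver, the 64 members with the smallest losses (3.001-fold to 4.48-fold) included 36 called lower in lung with desisobutyryl ciclesonide, with a median log2 change of -0.73. The next 64 included 53, with a median of -1.36, and the 64 with the largest losses (6.97-fold to 23.1-fold) included 50, with a median of -1.54. Across the 192 members, Pearson r was 0.145 and Spearman rho 0.295 between the liver dexamethasone log2 fold and the fitted lung log2 change. Ordered by the liver fold with desisobutyryl ciclesonide, the lowest 64 members (0.717 to 0.893) included 39 called lower in lung, with a median of -0.81. The next 64 included 46, with a median of -1.15, and the highest 64 (1.08 to 1.38) included 54, with a median of -1.60. Within the limits of the rule, members a little higher in liver with desisobutyryl ciclesonide tended to be lower in lung. Spearman rho was -0.359 and Pearson r was -0.325 across 192 members. Ordered by vehicle CPM in liver, the lowest, middle and highest 64 members included 43, 54 and 42 called lower, with medians of -1.07, -1.51 and -0.81, so there was no steady order. Of the 9178 genes past the vehicle limit, 14.3% were called lower in lung. These orders and correlations were not worked out over all genes, so they are not read as particular to the members. Genes are not independent, liver and lung libraries may come from the same pups, and no test was made.

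The joint losses outside the liver limit were described by the same counts. Of the 35 that were lowered beyond 1.4-fold in liver with desisobutyryl ciclesonide, 21 (60.0%) were called lower in lung and 0 higher, with a median log2 change of -0.80. Of the 19 that were raised beyond 1.4-fold in liver, 14 (73.7%) were called lower in lung and 0 higher, with a median of -1.55. Their dexamethasone losses in lung had medians of 5.33-fold and 8.79-fold, against 7.14-fold for the members. The genes lost in lung with dexamethasone by at least 3-fold but not in liver numbered 114. Of these, 39 (34.2%) were called lower in lung with desisobutyryl ciclesonide and 0 higher, with a median of -0.37, and their dexamethasone losses in lung had a median of 3.73-fold. The 289 genes lost in liver only had 44 called lower in lung and 36 higher, with a median of -0.00432. All these sets were chosen with lung vehicle and lung dexamethasone values, and the differences between sets were not tested.

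Members moved together within groups as well. After the mean of each group was removed, the median correlation between pairs of members was 0.475 over the 12 lung libraries and 0.465 over the 12 liver libraries. Over pairs of all 9178 genes the medians were 0.0428 and 0.130. The points share library, depth and treatment group, so these values describe these libraries only. The rule used all liver libraries and the vehicle and dexamethasone libraries of lung. With dexamethasone, 53 members in lung and 103 in liver had a mean under 2 CPM. The other sets of dexamethasone losses were not measured in this way, so the correlation is not read as particular to the members. The median level by library, given above, shows the same spread, with the lowest desisobutyryl ciclesonide values in replicate 4 in both tissues.

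The members with the deepest joint losses with dexamethasone were ENSRNOG00000053047 and ENSRNOG00000067723. ENSRNOG00000053047 measured 205, 196, 261 and 212 CPM in lung vehicle replicates 1 to 4, 4.83, 3.44, 8.73 and 6.85 CPM with dexamethasone, and 70.5, 63.8, 46.6 and 34.2 CPM with desisobutyryl ciclesonide. The 3 lung groups did not overlap, and desisobutyryl ciclesonide lay between the others. In liver it measured 62.2, 74.1, 62.8 and 42.3 CPM with vehicle, 14.4, 2.59, 4.20 and 2.04 CPM with dexamethasone, and 65.4, 80.6, 65.6 and 52.0 CPM with desisobutyryl ciclesonide. The liver vehicle and desisobutyryl ciclesonide libraries overlapped. Its dexamethasone means were 33.8-fold lower in lung and 9.64-fold lower in liver, values the rule used. In lung with desisobutyryl ciclesonide it fell by 1.93 on the log2 scale (SE 0.24, edgeR adjusted p = 0.000330, up to 0.00201 over the alternatives).

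ENSRNOG00000067723 measured 33.4, 22.9, 30.7 and 28.6 CPM in lung with vehicle and 0.813, 0.106, 0.682 and 0.395 CPM with dexamethasone. With desisobutyryl ciclesonide it measured 12.99, 9.74, 8.96 and 5.74 CPM in lung, again between the other groups. In liver it measured 17.9, 24.0, 29.6 and 13.5 CPM with vehicle, and 3.12, 0.486, 0.600 and 0.624 CPM with dexamethasone. The liver values with desisobutyryl ciclesonide, 19.8, 20.1, 18.99 and 16.9 CPM, lay within the vehicle range. In lung with desisobutyryl ciclesonide it fell by 1.54 on the log2 scale (SE 0.31, edgeR adjusted p = 0.00387, up to 0.0164 over the alternatives).

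The members with the largest called falls in lung with desisobutyryl ciclesonide were ENSRNOG00000015275 and ENSRNOG00000027035. ENSRNOG00000015275 measured 17.8, 19.3, 26.4 and 21.4 CPM in lung with vehicle and 5.20, 3.36, 3.84 and 3.09 CPM with desisobutyryl ciclesonide, without overlap. Its lung dexamethasone libraries stood at 0.181, 0.318, 0.809 and 0.323 CPM. The lung change with desisobutyryl ciclesonide was -2.36 (log2, SE 0.28, edgeR adjusted p = 0.000166, up to 0.00124 over the alternatives). In liver it measured 6.70, 10.01, 9.75 and 4.37 CPM with vehicle and 5.39, 5.29, 5.90 and 5.42 CPM with desisobutyryl ciclesonide, so the liver groups overlapped, and 0.909, 0.108, 0.642 and 0.454 CPM with dexamethasone.

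ENSRNOG00000027035 measured 30.5, 32.9, 41.3 and 30.3 CPM in lung with vehicle and 5.83, 6.77, 7.74 and 5.11 CPM with desisobutyryl ciclesonide. These 8 libraries did not overlap, and the dexamethasone libraries were lower still at 1.27, 0.794, 2.05 and 1.69 CPM. The lung change with desisobutyryl ciclesonide was -2.31 (log2, SE 0.22, edgeR adjusted p = 4.12e-05, up to 0.000259 over the alternatives). In liver it measured 9.33, 18.0, 13.3 and 8.23 CPM with vehicle, 2.27, 0.162, 1.03 and 0.738 CPM with dexamethasone, and 10.03, 8.34, 11.0 and 7.83 CPM with desisobutyryl ciclesonide. The first and last of these liver groups overlapped.

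The only member called higher in lung with desisobutyryl ciclesonide was ENSRNOG00000024115. It measured 45.6, 60.8, 19.2 and 44.8 CPM in lung with vehicle, 4.74, 1.59, 7.24 and 6.49 CPM with dexamethasone, and 208, 211, 106 and 63.5 CPM with desisobutyryl ciclesonide. All 4 desisobutyryl ciclesonide libraries lay above all vehicle libraries, while all 4 dexamethasone libraries lay below them. The lung change with desisobutyryl ciclesonide was 1.87 (log2, SE 0.50, edgeR adjusted p = 0.0217). The call is fragile: adjusted p ranged from 0.00253 to 0.0580 over the alternatives and missed the threshold without lung vehicle replicate 1 (0.0536) or 4 (0.0580), and without desisobutyryl ciclesonide replicate 1 (0.0512) or 2 (0.0521). In liver it measured 169, 149, 142 and 144 CPM with vehicle, 16.0, 7.07, 18.9 and 14.2 CPM with dexamethasone, and 104, 83.9, 217 and 87.6 CPM with desisobutyryl ciclesonide. In liver 3 of the 4 desisobutyryl ciclesonide libraries thus lay below every vehicle library and replicate 3 above, and only their mean met the limit of the rule.

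The most abundant members were ENSRNOG00000045683 and ENSRNOG00000068914. ENSRNOG00000045683 measured 5529, 5369, 4442 and 4947 CPM in lung with vehicle, 1102, 316, 1316 and 579 CPM with dexamethasone, and 6048, 6396, 6130 and 4540 CPM with desisobutyryl ciclesonide. The vehicle and desisobutyryl ciclesonide libraries overlapped in lung, and the change was not called (log2 change 0.28, SE 0.32, edgeR adjusted p = 0.573, from 0.0980 to 0.735 over the alternatives). In liver the gene was far lower, at 18.2, 21.9, 26.7 and 16.0 CPM with vehicle, a lung to liver ratio of 239 that was the highest of all 9178 genes. With dexamethasone it stood at 5.84, 0.972, 2.78 and 2.04 CPM in liver, and with desisobutyryl ciclesonide at 10.5, 24.5, 11.3 and 25.5 CPM, where replicates 1 and 3 lay below every vehicle library.

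This 1 gene weighs on the summed level of the members. It held 21.96% of the members' CPM in lung with vehicle and 34.8% with desisobutyryl ciclesonide. All members together held 2.31% ± 0.0821 (SD, n = 4) of lung counts with vehicle, 0.385% ± 0.0828 with dexamethasone and 1.66% ± 0.293 with desisobutyryl ciclesonide. Without it the shares were 1.80% ± 0.0610, 0.303% ± 0.0385 and 1.08% ± 0.222. In liver all members together held 0.504% ± 0.0819, 0.0720% ± 0.0215 and 0.497% ± 0.0708 of the counts.

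ENSRNOG00000068914 measured 1794, 1827, 1762 and 1718 CPM in lung with vehicle, 188, 98.1, 135 and 120.4 CPM with dexamethasone, and 1236, 1144, 816 and 562 CPM with desisobutyryl ciclesonide. The lung groups did not overlap. The lung change with desisobutyryl ciclesonide was -0.83 (log2, SE 0.23, edgeR adjusted p = 0.0186), and the call was lost without desisobutyryl ciclesonide replicate 3 (adjusted p = 0.0595, the highest over the alternatives, with 0.00176 the lowest). In liver it measured 178, 169, 208 and 199 CPM with vehicle and 11.7, 3.35, 6.90 and 8.79 CPM with dexamethasone, the deepest liver loss of any member at 23.1-fold. With desisobutyryl ciclesonide the liver libraries stood at 293, 215, 62.1 and 90.9 CPM, with replicates 1 and 2 above every vehicle library and replicates 3 and 4 below every one. The liver mean near vehicle is therefore an average over libraries on both sides of vehicle.

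**Figure D5:**
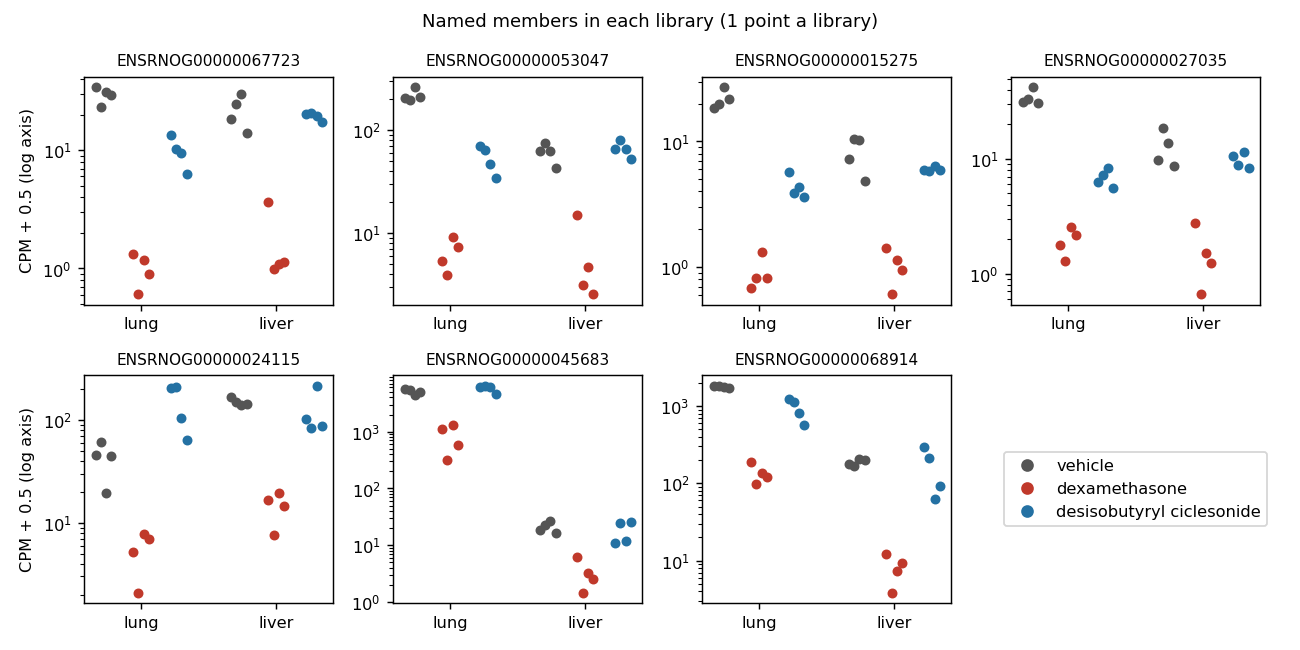
CPM plus 0.5 on a log axis (y axis) of 7 named members in each of the 24 libraries, by tissue and treatment (1 point a library). ENSRNOG00000024115 lies above vehicle in lung with desisobutyryl ciclesonide, ENSRNOG00000045683 overlaps vehicle there, and the other 5 lie below vehicle.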

How the data were processed

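Poly(A) RNA libraries (directional, dUTP) of 24 samples in 6 groups of 4 were analysed. The authors deposited 1 table of raw counts per library. Reads were handled with HTSeq, HISAT2 and cutadapt on build mRatBN7.2, per the submitters' processing notes. Their versions, and the strand setting of the counting, are not given in the sources used here. The 5 summary rows, 16.8% to 31.8% of entries, were left out. No library repeated another: the lowest chi-square per degree of freedom over 36 replicate pairs was 11.6.

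The members, gene sets and alternatives were chosen with earlier results of these data known. edgeR 4.0.16 (quasi-likelihood, TMM, filterByExpr, R 4.3.3) was fitted to the 12 lung libraries with Benjamini-Hochberg adjustment at 0.05. It was tested on simulated data. Alternatives used limma 3.58.1 (voom), DESeq2 1.42.0, other scalings and filters, a replicate block and each replicate left out. Genes were named by rule, at most 2 identifiers for each of these: smallest dexamethasone folds, largest called changes in lung with desisobutyryl ciclesonide in each direction, and highest vehicle CPM. Planned gene lists, cell type markers and promoter searches need gene names and were not run.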

Additional observations from a re-analysis of the deposited data

Results flagged for a closer look

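The CPM of the 8 named members, the summed share of the members and their median ratio to vehicle were searched in each group of 4 libraries for a library far from the other 3. Of 60 such searches 2 found one, and chance gives about 1 in 20. ENSRNOG00000067723 measured 3.12 CPM in liver dexamethasone replicate 1, with the others from 0.486 CPM upward to 0.624 CPM. ENSRNOG00000024115 measured 216.5 CPM in liver desisobutyryl ciclesonide replicate 3, with the others from 83.9 to 103.6 CPM.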

How the results depend on the processing

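The count of members called lower in lung with desisobutyryl ciclesonide, 139, ranged from 121 (without desisobutyryl ciclesonide replicate 3) to 154 (only the 8 vehicle and desisobutyryl ciclesonide libraries) over 16 alternatives, with at least 121 of the same genes in each and medians from -1.31 to -1.04. The count called higher, 1, was 3 with only those 8 libraries and 0 to 1 with a replicate left out. Over all genes the 3884 calls ranged from 2564 to 3366 with a replicate left out, lowest without desisobutyryl ciclesonide replicate 3, and rose to 4574 with DESeq2 and 5031 with those 8 libraries. Of the 3884 calls 51.2% were lower. That share was 67.2% with plain library totals, where the median of all genes moved to -0.10, and 48.3% with DESeq2 size factors or DESeq2, so which direction held the majority of all calls depended on the setting. Replicate numbers did not pair the libraries (correlations of same-numbered vehicle and desisobutyryl ciclesonide deviations 0.0965, 0.133, -0.119 and -0.0658). With a replicate block 142 members were lower and 0 higher, with 3697 calls over all genes, and ENSRNOG00000024115 lost its call (adjusted p = 0.0549, edgeR). ENSRNOG00000012660 was not called (adjusted p = 0.169), but was with the 8 libraries alone (0.00126) and without lung dexamethasone replicates 3 and 4 (0.0146), an alternative chosen after seeing the data. The rule itself gave 155 genes with TMM-scaled CPM (153 shared), 201 with 0.1 CPM added (188 shared) and 174 to 201 with a replicate left out. The cause of these shifts was not tested. The median change of the members stayed below 0, and the 8 named members kept the sign of their change, in all 16 alternatives. Values near 1 CPM rest on few counts.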
